A study of Mus musculus with 8 samples.

Results

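The Ifi200 cluster, also called the PYHIN or p200 family, is a row of interferon-inducible genes on mouse chromosome 1. It was followed here through 8 member genes, Ifi204, Ifi203, Ifi205, Ifi202b, Mnda, Mndal, Pyhin1 and Aim2, taken by symbol from the 48321 gene symbols of the count tables. All 8 symbols were present in every table, and 6 of them passed the filter on low counts that left 12597 genes for testing. The cluster was selected on the CPM of Ifi204 in KO against WT, since it had almost no counts in the libraries labelled KO, so differences between KO and WT among the members are given as a description, and where a count past the test's threshold is printed for them nothing is read from it.

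RNA was sequenced from sorted peripheral CD8+ T cells, the cytotoxic T lymphocytes, of the spleen of C57BL/6 mice. The mice of the series are described as Satb1 F/F; E8I-cre, that is, with floxed alleles of Satb1, a chromatin-organising protein of T cells, and a Cre transgene that is active in mature CD8+ T cells. There were 4 groups of 2 libraries each, namely WT and KO at day 0 and WT and KO at day 5, the last being cells cultured and stimulated in vitro. Beyond the words WT and KO the labels say nothing of genotype, so whether WT mice carried floxed alleles or the Cre transgene is not given in the sources used here, nor are age, sex or the stimulus. Nothing in the labels says that the libraries of a group came from separate mice or cultures, so p-values measure only the spread between these libraries, which may be technical.

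Proteins of the family pair an amino-terminal pyrin domain, which binds other pyrin domains, with carboxy-terminal HIN domains that bind DNA, although some members lack the one or the other. AIM2 senses DNA in the cytosol and assembles an inflammasome with the adaptor ASC, and several of the other proteins are nuclear and have been linked to transcription, to interferon responses and to the control of cell growth. Many of the genes are induced by interferon and are best known from macrophages and other myeloid cells. The genes are close copies of one another, which bears on how their reads can be counted.

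Libraries held 4170126 to 11117971 counts in genes, which were 21.2% to 24.5% of all records. Expression is given as CPM, that is, counts scaled to a common library size after adjustment by the trimmed mean of M-values (TMM). All 9 CD8 T cell markers examined were at 1 CPM or more in every group, and Cd4 stayed under 1 CPM in every library. The summed level of 3 CD4 T cell markers was 1.36 to 3.58 CPM in WT and 6.06 to 6.26 CPM in KO at day 0. At day 5 it was 2.65 to 3.17 CPM in WT and 3.13 to 3.22 CPM in KO. Cd40lg held 5.66 and 3.85 CPM in KO at day 0, against 1.61 and 1.13 CPM in WT. The summed level of 14 myeloid markers was 14.7 to 24.2 CPM in WT and 13.1 to 22.8 CPM in KO at day 0, and 36.0 to 42.7 CPM in WT and 53.4 to 73.8 CPM in KO at day 5, when Cd68 alone held 30.7 to 68.4 CPM. The summed level of 7 B cell markers, most of it Cd79b, was 122 to 124 CPM in WT and 143 to 169 CPM in KO at day 0, and 68.1 to 69.6 CPM in WT and 81.5 to 84.3 CPM in KO at day 5. It was thus higher in KO at both days and lower after culture, as Pyhin1, Ifi203 and Mndal were by their group means, and its part in their values was not tested. Of the 14 myeloid markers Csf1r was the highest at day 0, with 6.8 to 11.7 CPM, and it held 3.53 to 4.73 CPM at day 5. Itgam was at 2.06 CPM or more in every library of day 0 and did not exceed 1.47 CPM at day 5. Cd14 had no count in 7 of the 8 libraries, and Lyz2 did not exceed 3.39 CPM. Satb1 itself had 97.8 and 91.6 CPM in WT and 144 and 125 CPM in KO at day 0, against 96.5 and 116 CPM in WT and 56.5 and 62.3 CPM in KO at day 5. At day 0 the gene count thus went against the label, and the tables hold no values by exon, so these groups are called the libraries labelled KO below and every result that uses day 0, the culture comparisons and the interaction included, rests on the labels. Ifi204 and its neighbour Gm16340 were low in the libraries labelled KO at both days. The level of Ifi204 chose the cluster, and nothing about the labels is read from either gene.

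The cluster lies at 173350879 to 174031810 on chromosome 1 (GRCm38), a stretch of 681 kb by the GENCODE M21 annotation. Aim2 (plus strand) is the first gene of the row at 173350879 to 173466040, and Pyhin1 (plus strand, Ifi209 in the annotation) follows at 173630917 to 173647928. The remaining members are on the minus strand. They are Ifi204 at 173747293 to 173766943, Mndal at 173849126 to 173942491, Mnda (Ifi211 in the annotation) at 173896345 to 173913046, Ifi203 at 173920407 to 173942672, Ifi202b at 173962568 to 173982744 and Ifi205 at 174011998 to 174031810. Mndal spans the whole of Mnda and overlaps most of Ifi203, which runs past its end, and the exons of Mndal share 4.27% of their length by position with other genes, Ifi203 among them. Of all 50-base windows in the annotated transcripts, the share found in no other gene was 99.3% for Aim2, 87.6% for Ifi203, 80.4% for Mndal, 80.0% for Ifi204 and 66.3% for Pyhin1. It was only 27.2% for Mnda, which shared 44.7% of its windows with Ifi205, so that counts of Mnda are uncertain.

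Promoters are shown because Ifi203, Mndal and Pyhin1 moved together in culture and because interferon is the known inducer of the family. RefSeq sequences (GRCm38.p6) of 250 bases before to 50 bases after the start were matched for 7 of the 8 members, all but Ifi204, and for 4 of 6 further genes of the family. The search used GAAA, any 2 bases and GAAA again, a core of the interferon-stimulated response element (ISRE), and TTCNNNGAA, the interferon-gamma activated site (GAS), on both strands. Capitals mark a match, and positions count from the base at the start as 0. The first 3 windows are on the minus strand and the last 2 on the plus strand.
Ifi203, chr1:173942443-173942742: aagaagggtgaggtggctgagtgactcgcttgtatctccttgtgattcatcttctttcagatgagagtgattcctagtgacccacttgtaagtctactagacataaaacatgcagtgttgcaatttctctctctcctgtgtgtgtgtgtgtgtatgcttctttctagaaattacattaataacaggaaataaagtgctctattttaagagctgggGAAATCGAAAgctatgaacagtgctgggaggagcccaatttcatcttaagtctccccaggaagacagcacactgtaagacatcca
Mndal, chr1:173880138-173880437: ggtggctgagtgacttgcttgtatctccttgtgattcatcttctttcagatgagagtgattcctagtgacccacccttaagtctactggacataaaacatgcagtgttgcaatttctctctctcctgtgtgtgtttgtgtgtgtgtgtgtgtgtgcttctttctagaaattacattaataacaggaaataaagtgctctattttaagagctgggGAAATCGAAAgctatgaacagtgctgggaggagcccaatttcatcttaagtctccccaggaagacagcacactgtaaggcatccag
Mnda, chr1:173912997-173913296: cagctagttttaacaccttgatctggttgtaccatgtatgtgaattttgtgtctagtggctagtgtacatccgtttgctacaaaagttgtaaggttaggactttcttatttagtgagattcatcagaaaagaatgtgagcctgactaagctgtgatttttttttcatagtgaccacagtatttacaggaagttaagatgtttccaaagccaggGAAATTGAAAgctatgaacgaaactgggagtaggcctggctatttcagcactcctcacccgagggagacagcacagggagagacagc
Pyhin1, chr1:173630609-173630908: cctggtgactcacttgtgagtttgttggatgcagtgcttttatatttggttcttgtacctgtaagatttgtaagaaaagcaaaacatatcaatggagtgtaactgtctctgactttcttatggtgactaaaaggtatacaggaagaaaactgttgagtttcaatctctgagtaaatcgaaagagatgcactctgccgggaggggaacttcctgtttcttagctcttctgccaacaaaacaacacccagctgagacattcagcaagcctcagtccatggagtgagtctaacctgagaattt
Aim2, chr1:173420354-173420653: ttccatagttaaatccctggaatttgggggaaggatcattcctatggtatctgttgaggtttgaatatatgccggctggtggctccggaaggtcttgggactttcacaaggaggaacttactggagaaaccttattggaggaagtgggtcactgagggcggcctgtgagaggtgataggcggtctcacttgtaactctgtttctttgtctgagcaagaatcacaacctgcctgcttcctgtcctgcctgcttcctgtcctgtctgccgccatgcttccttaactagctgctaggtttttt
Ifi203 and Mndal carried the same 10 letters, GAAATCGAAA, beginning at -35 and -36, and Mnda carried GAAATTGAAA at -37. Ifi203 and Mndal each have a second RefSeq window, not printed. That of Ifi203 (chr1:173942623-173942922) held neither pattern, and that of Mndal (chr1:173879909-173880208) held TTTCTCTTTC, the ISRE-like letters on the other strand, at -54. The windows of Pyhin1 and Aim2 held neither pattern. Counted by window, 5 of the 9 windows of the 7 matched members and 4 of the 4 windows of further family genes held the ISRE-like letters, compared with 3.44% of 32851 mouse promoter windows of the same length. The printed windows of Ifi203 and Mndal were close copies of each other, as were those of Pydc3, Pydc4 and Gm4955. Mndal held the letters in both of its windows. The family windows are thus not independent of one another, and the difference from the share over all windows was not tested. The GAS letters occurred in 1 member, Ifi202b, and in 8.30% of all windows, and no gene of the family held both patterns. These matches describe letters only, and binding was not measured.

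In WT cells before culture the members covered a wide range of levels. Per kilobase of exon, Pyhin1 was the highest in WT at day 0 with 152 ± 15.9 CPM per kb (SD, n = 2), followed by Mndal with 89.9 ± 2.91 and Ifi203 with 52.4 ± 2.99 CPM per kb. Aim2 with 9.17 ± 0.826 and Ifi204 with 7.80 ± 0.0977 CPM per kb came next, and their libraries lay close together, at 9.76 and 8.59 for Aim2 and 7.74 and 7.87 for Ifi204. Mnda had 1.46 ± 0.795 CPM per kb, and Ifi202b and Ifi205 were below 0.2 CPM per kb. Pyhin1 supplied 46.6% and 50.2% of the summed length-scaled level of the 8 members in the WT libraries at day 0, but 31.1% and 21.3% in those at day 5, when Mndal was the highest with 66.3 ± 0.0502 CPM per kb.

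**Figure D1:**
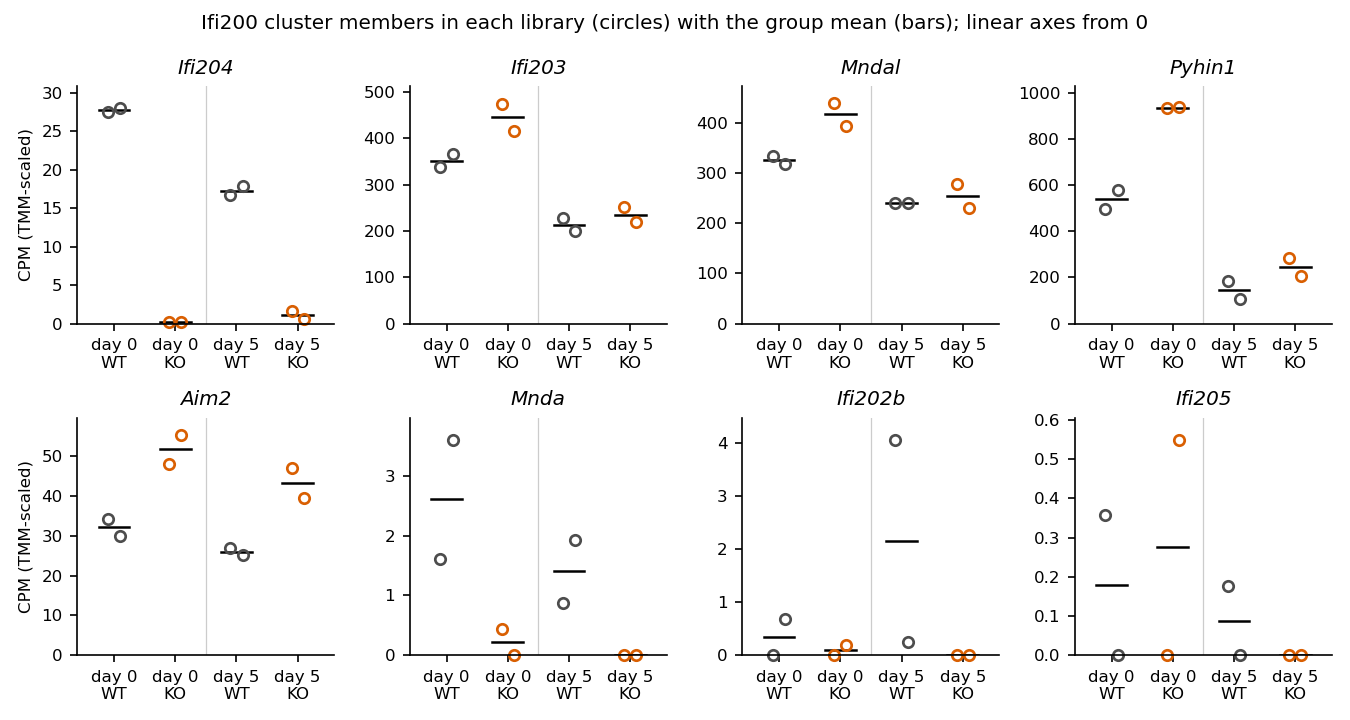
CPM of each of the 8 members (vertical axes, linear and starting at 0, with a scale of its own for each gene) in the WT and KO libraries at day 0 and day 5; circles are single libraries and bars are group means. Ifi204 sits at 27.5 and 28.0 CPM in WT at day 0 and below 0.2 CPM in KO, whereas Pyhin1, Ifi203 and Mndal drop from day 0 to day 5 in both genotypes.

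Ifi204, whose protein binds DNA and has been linked to growth control and differentiation, was the member that set the cluster apart. It had 154 and 124 counts in WT and 2 and 1 counts in the libraries labelled KO at day 0, or 27.5 and 28.0 CPM against 0.172 and 0.184 CPM. The WT level was 158-fold that of KO by pooled counts, with an exact 95% interval of 53.6 to 772 that covers counting error only. At day 5 it had 95 and 74 counts in WT (16.8 and 17.8 CPM) and 9 and 3 counts in KO (1.66 and 0.568 CPM), a log2 fold change of -3.92 (SE 0.38). This value was -4.88 without KO replicate 1 and -3.37 without KO replicate 2 of day 5. No library labelled KO reached the level of any WT library at either day. The summed level of the myeloid markers overlapped between genotypes at day 0 and was higher in KO at day 5, as given above, and its part in the result was not tested.

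The abundant members did not share the loss of Ifi204. Pyhin1 had 498 and 578 CPM in WT and 934 and 939 CPM in KO at day 0, a log2 fold change of 0.80 (SE 0.21), and 185 and 105 CPM in WT and 284 and 205 CPM in KO at day 5, a log2 fold change of 0.75 (SE 0.22). Every KO library was above the WT libraries of its day, but the difference at day 5 depended on the WT replicate used, being 1.23 without the first and 0.40 without the second. Aim2, the cytosolic DNA sensor, behaved in a similar manner, with 34.2 and 30.1 CPM in WT and 48.1 and 55.4 CPM in KO at day 0. At day 5 its levels were 27.0 and 25.1 CPM in WT and 47.1 and 39.6 CPM in KO. Its log2 fold changes between genotypes were 0.68 (SE 0.18) at day 0 and 0.73 (SE 0.18) at day 5, and its groups did not overlap at either day.

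Ifi203 and Mndal differed less between genotypes. Ifi203, a nuclear p200 protein, had 338 and 366 CPM in WT and 475 and 415 CPM in KO at day 0, a log2 fold change of 0.34 (SE 0.13). At day 5 it had 227 and 200 CPM in WT and 252 and 219 CPM in KO, which overlapped, with a log2 fold change of 0.14 (SE 0.13). That change was 0.03 without KO replicate 1 and 0.24 without WT replicate 1 of day 5. Mndal, a relative of the myeloid nuclear differentiation antigen, had 334 and 319 CPM in WT and 441 and 393 CPM in KO at day 0, a log2 fold change of 0.35 (SE 0.13). At day 5 it had 241 and 240 CPM in WT against 279 and 230 CPM in KO, a log2 fold change of 0.08 (SE 0.13), and the groups overlapped. The value was -0.06 without KO replicate 1 and 0.21 without KO replicate 2 of day 5, and 0.24 with an offset for GC content and exon length.

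The members with few counts were recorded as follows. Mnda had 9 and 16 counts in WT and 5 and 0 counts in KO at day 0. At day 5 it had 5 and 8 counts in WT and none in either KO library, at least 2.47-fold lower against a floor of 3 counts in the shallower library. Its groups did not overlap at either day. Ifi205 had no library above 3 counts. Ifi202b, which is known for its low expression in C57BL/6 mice, had 0 and 3 counts in WT and 0 and 1 in KO at day 0, and 23 and 1 counts in WT and none in KO at day 5, so that 1 WT library held most of its reads.

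Between genotypes, 1 of the 6 members tested, Ifi204, was past the edgeR threshold (FDR under 0.05) at day 0, when 1.8% of all tested genes were, and again 1 of 6 at day 5, when 1.63% were. Since this contrast chose the cluster, nothing is read from these counts.

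The culture comparison was tested for the members other than Ifi204, whose WT level was part of the contrast that chose the cluster. The members were listed with earlier results of both days known, so the calls are not independent of that knowledge. In WT cells, 3 of the 5 tested members other than Ifi204 fell from day 0 to day 5 and none rose, where 23.6% of all tested genes fell and 24.7% rose. The median log2 fold change of the 5 was -0.72, against -0.04 over all tested genes. Pyhin1 fell the most among the members that passed the test, by 1.89 on the log2 scale (SE 0.22, FDR 2.1e-05 in edgeR). Ifi203 fell by 0.72 (SE 0.13, FDR 0.000671, edgeR) and Mndal by 0.44 (SE 0.13, FDR 0.0130, edgeR). For Pyhin1, Ifi203 and Mndal, both day 5 libraries were below both day 0 libraries. The count was 2 when either WT library of day 0 was left out, since Mndal then lost the call. For Mndal the edgeR FDR was 0.0914 without the first and 0.0530 without the second.

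For Ifi204 the fitted log2 fold change in WT culture was -0.69 (SE 0.27), between -0.84 and -0.62 over 17 alternative fits, and is given without a test. Its WT libraries of day 5 both lay below those of day 0. The log2 fold change was -0.30 for Aim2 (SE 0.18, edgeR FDR 0.195) and -0.91 for Mnda (SE 0.81, edgeR FDR 0.381), and neither passed the test. For Mnda it lay between -1.49 and -0.23 over 15 alternative fits.

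In the libraries labelled KO, 3 of the 5 tested members other than Ifi204 fell in culture and none rose, where 24% of all tested genes fell and 26.2% rose. Pyhin1 fell by 1.94 on the log2 scale (SE 0.22, FDR 1.4e-05, edgeR), Ifi203 by 0.92 (SE 0.13, FDR 8.62e-05, edgeR) and Mndal by 0.71 (SE 0.13, FDR 0.000524, edgeR). These are the members called in WT, and the calls held in all 17 alternative fits. For Aim2 the log2 fold change was -0.25 (SE 0.17) with an edgeR FDR of 0.239. The median of the 5 was -0.92, or -0.71 if Mnda, which had 5 and 0 counts at day 0 and none at day 5, is placed above the others. Ifi204 had 2 and 1 counts at day 0 and 9 and 3 at day 5 in these libraries, which is given without a test because its low level there chose the cluster.

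Whether culture acted differently in the genotypes was asked with the interaction, which subtracts the genotype difference at day 0 from the one at day 5 on the log2 scale. None of the 5 members other than Ifi204 was called in the edgeR fit, and 0.159% of all tested genes were. The difference was -0.05 (SE 0.31) for Pyhin1, 0.05 (SE 0.25) for Aim2, -0.20 (SE 0.18) for Ifi203 and -0.27 (SE 0.18) for Mndal. With 2 libraries a group these errors leave room for differences of a size similar to the culture response of Mndal.

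**Figure D2:**
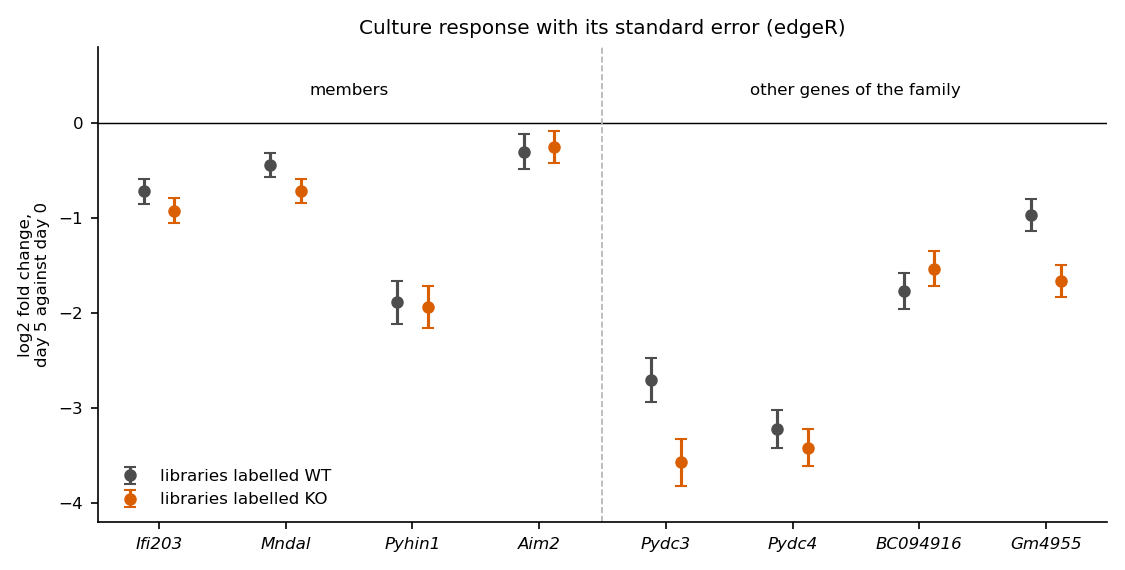
Log2 fold change of day 5 against day 0 (vertical axis) with its standard error for 4 members and 4 other genes of the family, in the libraries labelled WT (grey) and KO (orange). All 16 values are below 0, with Aim2 the nearest to it at -0.30 and -0.25.

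Other genes of the family, none of them a member of the list, were found under 6 symbols, of which 5 were tested. In culture, 4 of the 5 fell in WT and the same 4 fell in KO, where 23.6% and 24% of all tested genes fell. Pydc4 (Ifi213 in the annotation) went from 133 and 145 CPM at day 0 to 16.4 and 13.3 CPM at day 5 in WT, a fall of 3.22 on the log2 scale (SE 0.20), and Pydc3 (Ifi208) from 192 ± 2.01 CPM (SD, n = 2) to 29.0 ± 11.4 CPM, a fall of 2.70 (SE 0.23). Both are larger than the change of any member called. BC094916, for which no position was matched, fell by 1.77 (SE 0.19) and Gm4955 (Ifi206) by 0.97 (SE 0.17) in WT.

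The genotype values of these genes also went in both directions. Gm16340, a pseudogene named Ifi203-ps in the annotation that lies beside Ifi204 at 173776529 to 173798270, had 17 and 31 counts in WT and 1 and 1 in KO at day 0. The WT level was 41.0-fold that of KO (exact 95% interval 10.7 to 348). At day 5 it had 15 and 10 counts in WT and 1 and 0 in KO, a ratio of 27.3 (4.47 to 1120). It shared 24.3% of its 50-base windows with Ifi203, which was not lower in KO, and the part of shared windows in its counts was not tested. Gm4955 had 216 and 227 CPM in WT and 497 and 415 CPM in KO at day 0 (log2 fold change 1.04, SE 0.16), and Pydc4 had 133 and 145 CPM in WT and 236 and 250 CPM in KO (0.80, SE 0.17). BC094916 was on the other side, with 229 and 256 CPM in WT and 171 and 162 CPM in KO (-0.54, SE 0.18), and Pydc3 differed little at day 0 (-0.11, SE 0.21). At day 5 the log2 fold changes were 0.35 (SE 0.17) for Gm4955, 0.60 (SE 0.22) for Pydc4, -0.31 (SE 0.19) for BC094916, whose groups overlapped, and -0.97 (SE 0.26) for Pydc3.

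The nearest tested genes outside the family were Dusp23, 718 kb before the cluster, and Fh1, 1569 kb after it. Of the 5 nearest tested genes on each side, none was past the edgeR threshold between genotypes at either day. Within 2 Mb, 37 genes were tested, of which Cd48 and Kcnj9 were past it at day 0 and Cd244 at day 5, beside 1.8% and 1.63% of all tested genes. The median absolute log2 fold change of the 37 was 0.43 at day 0 and 0.39 at day 5, against 0.23 and 0.25 over all tested genes. For the 5 genes within 1 Mb it was 0.24 at day 0, close to that of all genes, and 0.61 at day 5. For the 69 genes within 5 Mb it was 0.35 and 0.31. Fcgr3 was past the threshold there at both days, lower in KO by a log2 fold change of -3.16 (SE 0.53) and -4.32 (SE 0.53), and Ppox at day 5.

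**Figure D3:**
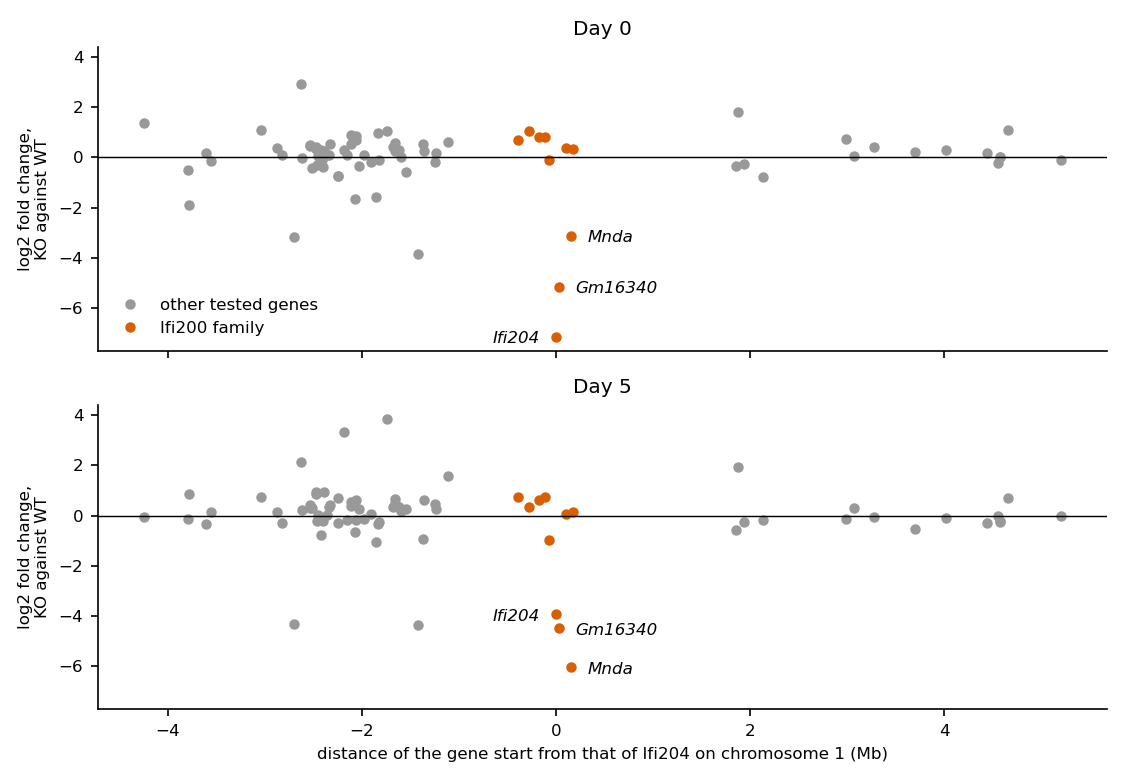
Log2 fold change of KO against WT at day 0 (top) and day 5 (bottom) for tested genes of the Ifi200 family (orange) and other tested genes (grey) by distance of the gene start from that of Ifi204 on chromosome 1 in Mb. Ifi204, Gm16340 and Mnda stand below the other family genes at both days; fitted values of genes with almost no counts in KO depend on the fit and are not bounds.

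Pathways in which the family takes part were described from 4 lists. Over all tested genes, 24.7% rose and 23.6% fell in WT culture, and 26.2% rose and 24% fell in KO, and the counts of each list stand beside these shares. Of 26 tested genes of cytosolic DNA sensing, 9 rose and 9 fell in WT culture, and 8 rose and 9 fell in KO. Fewer of them fell in WT without WT replicate 2 of day 5, and in KO without KO replicate 2 of day 5. In both of these fits fewer of all tested genes fell too. Hmgb2, a DNA-binding chromatin protein, rose by a log2 fold change of 4.04 (SE 0.15) in WT and 3.78 (SE 0.14) in KO. Ikbke, a kinase of the interferon response, fell by 3.05 (SE 0.19) in WT and 2.47 (SE 0.18) in KO. Of 13 tested inflammasome genes, 4 rose and 3 fell in WT, and 4 rose and 2 fell in KO, which is near the shares over all genes. Nlrc4 had the largest fitted change of the list in WT, -6.10 (SE 1.43), from 1.44 CPM to no count, and -3.45 (SE 0.67) in KO. Casp1, the protease that AIM2 inflammasomes activate, rose by 3.82 (SE 0.36) in WT and 3.86 (SE 0.35) in KO, from 2.41 to 33.2 CPM in WT. Casp4 rose by 3.24 (SE 0.54) in WT and 2.91 (SE 0.51) in KO. Pycard, which encodes the adaptor ASC, fell by 0.61 (SE 0.12) in WT and had -0.07 in KO (SE 0.12, edgeR FDR 0.638).

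Of 37 tested genes of the interferon receptors and response, 9 rose and 15 fell in WT, and 8 rose and 18 fell in KO, beside 24.7% and 23.6% of all tested genes in WT and 26.2% and 24% in KO. In WT, fewer genes of the list fell without replicate 2 of day 0, as did fewer of all tested genes. In KO, fewer fell without replicate 2 of day 5 and fewer rose without replicate 1 of day 5, again with fewer of all tested genes. The median log2 fold change of the list was -0.46 in WT and -0.65 in KO, against -0.04 and -0.05 over all tested genes. Ifit1, an antiviral gene induced by type I interferon, went from 239 ± 52.5 to 31.0 ± 28.8 CPM (SD, n = 2) in WT, where the day 5 libraries lay far apart, and from 284 ± 80.7 to 21.3 ± 7.09 CPM in KO. Irf7, a transcription factor that amplifies interferon production, fell by 1.84 (SE 0.21) in WT and 1.81 (SE 0.21) in KO. Irf8 went the other way, by 4.41 (SE 0.42) in WT and 3.36 (SE 0.37) in KO. The list thus held changes in both directions. Of 15 tested growth control genes that p200 proteins have been linked to, 7 rose and 5 fell in WT, and 7 rose and 4 fell in KO, to be read against the same shares. Fewer of them fell, in WT and in KO, without the genotype's own replicate 1 of day 0 or replicate 2 of day 5. In each of these fits fewer of all tested genes fell too. Cdkn1a, an inhibitor of cyclin-dependent kinases, rose from 0.202 to 215 CPM in WT and from 0.306 to 364 CPM in KO. None of the genes of the 4 lists was called for the interaction.

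**Figure D4:**
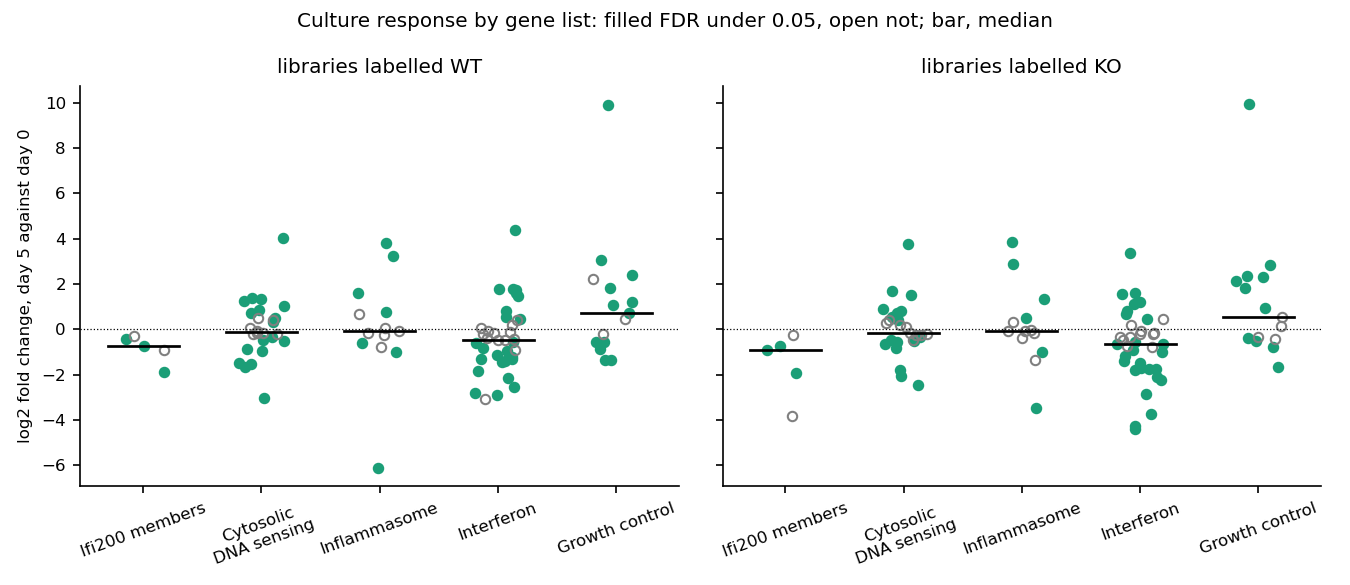
Log2 fold change of day 5 against day 0 (vertical axis) for tested Ifi200 members and for the genes of 4 lists in the libraries labelled WT (left) and KO (right), with Ifi204 left out of both; filled circles passed the edgeR threshold, open circles did not, and bars are medians. The called members all lie below 0, while the other lists hold filled circles on both sides of it.

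The genes whose levels followed each member were ranked by Pearson's r of log2 CPM over the 8 libraries, among 8911 genes with at least 10 CPM in 1 group or more. These values rest on 8 libraries that share groups and depth and are a description. For Ifi204 the highest were Klrd1 (r = 0.964), Gm9967 (0.957), Rplp2 (0.946), Edf1 (0.928) and Gdpd3 (0.927). Gdpd3 had a group mean of 103 CPM in WT and 0.991 CPM in KO at day 0, and Gm9967 of 24.5 and 1.25 CPM. For Ifi203 they were Tnfrsf22 (0.991), Tmem127 (0.990) and Herc1 (0.990), for Mndal Arhgef3 (0.989), Tnfrsf22 (0.983) and Zzef1 (0.982), and for Pyhin1 Mon2 (0.990), Plekhm1 (0.989) and Slc27a6 (0.988). Aim2 was followed by Wrap53 (0.982), Cln3 (0.980) and Kcna3 (0.973), and Mnda by Pno1 (0.978), Prmt3 (0.934) and Traf5 (0.929).

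Among the members themselves, Ifi203, Mndal and Pyhin1 ran together, with r of 0.976 for Ifi203 and Mndal, 0.979 for Ifi203 and Pyhin1 and 0.941 for Mndal and Pyhin1. Ifi204 ran against Aim2 (r = -0.875) and with Gm16340 (0.953) over the same 8 libraries. Its r with Ifi203 was -0.34.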

How the data were processed

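The authors deposited, for each library, raw read counts per gene symbol, made per the labels and the submitters' processing notes with HISAT2 2.1.0 and HTSeq 0.11.1 on mm10 (GRCm38) from 50-base HiSeq2500 reads of NEBNext Ultra libraries. Annotation and strand setting are not given in the sources used here. Reads in more than 1 place (31.8% to 37.4% of records) were not counted in genes, which lowers counts of near-identical family members. Lines naming no gene were left out of library sizes.

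Counts were fitted in edgeR 4.0.16 (R 4.3.3) by a quasi-likelihood model of all 8 libraries with a mean per group, TMM factors and filterByExpr (minimum count 10). P-values were two-sided, adjusted by Benjamini-Hochberg over 12597 genes, and called under 0.05. The common biological coefficient of variation was 15.0%. Ratios against groups with 1 to 3 counts a library carry exact binomial intervals, and floors are 3 counts. With 2 libraries a group, SD has 1 degree of freedom. The script was tested on simulated data. Replicates differed by more than sampling noise (chi-square per degree of freedom 5.08 to 10.4). Of the symbols, 46964 matched GENCODE M21.

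All 8 members were named, and likeness ranks gave 5 genes for Ifi204 and 3 for each other tested member. A test of Ifi204 in WT culture was planned and is not used, because its WT level helped choose the cluster. Members, lists and tests were chosen with earlier results of these data known. Alternatives were other scalings, filters, tools and samples, leaving out each library, a replicate block and, added after the data were seen, an offset for GC content and exon length.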

Additional observations from a re-analysis of the deposited data

Results flagged for a closer look

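Ifi204 moved in opposite directions in culture in the libraries of each genotype. In the libraries labelled KO its mean level was 0.934 CPM higher at day 5 than at day 0, both day 5 libraries being above both day 0 libraries, whereas both WT libraries of day 5 were below those of day 0. The difference was not tested as a finding, because the levels of Ifi204 chose the cluster. The fit of all genes gave an interaction of 3.22 (SE 0.75) for it that did not pass the threshold (edgeR FDR 0.123), and nothing is read from it. The KO values rest on 3 counts at day 0 and 12 at day 5.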

How the results depend on the processing

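No called value of a member changed sign under the alternatives run, but Mndal between genotypes at day 5, at 0.08, was -0.06 without KO replicate 1 of that day. The 3 members other than Ifi204 that fell in WT culture became 2 when either WT library of day 0 was left out (2 to 3 over the libraries left out). The members past the threshold between genotypes, 1 at each day, became 2 at day 0 and 3 at day 5 with DESeq2 1.42.0, 3 and 4 without a filter on low counts, 2 at day 0 with only the libraries of the comparison and 2 at day 5 with the GC and length offset. Leaving out single libraries gave 1 to 2 at each day. The cause was not tested. Of all 12597 genes, the main fit called 115 higher and 112 lower in KO at day 0, and 165 and 40 at day 5. DESeq2 called 143 and 154 of them at day 0, and 273 and 78 at day 5. Without the filter, 230 and 204 of 34404 genes were called at day 0, and 321 and 97 at day 5. That fit also held Ifi202b and Ifi205, so its 3 and 4 are counts out of more members than in the main fit. Nothing is read from these member counts.

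With the replicate number as a block, the members other than Ifi204 that fell in WT again numbered 3, and none of them changed its call. Deviations of same-numbered libraries correlated by 0.118 in WT and 0.228 in KO across days and by -0.0742 to 0.00438 otherwise, and whether same-numbered libraries of a genotype share a mouse or culture is not given in the labels, so the block was not made the main fit. The GC and length offset moved Ifi203 between genotypes at day 0 from 0.34 to 0.17, and brought Aim2 in WT culture to an FDR of 0.0497. Scaling by library totals moved the median of all genes in culture to -0.17 in WT and -0.23 in KO, and the share of culture calls that were higher from 51.2% to 42.8% in WT and from 52.1% to 41.2% in KO. Low counts limit Mnda, Ifi202b and Ifi205.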

Other observations

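Ifi202b had 23 counts (4.06 CPM) in the first WT library of day 5 and 1 count (0.241 CPM) in the second, while no library of another group exceeded 3 counts. All 50-base windows of its annotated transcripts were found in no other gene. AI607873 (Ifi207 in the annotation) had 10 counts in the deepest library, KO replicate 1 at day 0, and 4 or fewer elsewhere.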
